A study of Mus musculus with 15 samples.

Results

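The genes described here are 40 mouse genes that are normally active in germ cells: genes of meiosis, of the piRNA pathway and of germ cell regulation, most of which somatic cells keep silent by methylation of the promoter. They were taken by name from the 24982 gene symbols of the count tables, and all 40 were found. Enough counts for a test were present for 38 of the 40, out of 15696 genes tested; Spo11, the nuclease that starts meiotic recombination, and Tdrd6, a scaffold protein of germ granules, were too low. RNA-seq of polyadenylated RNA was done in E14TG2, a line of mouse embryonic stem cells (ESCs), on the way to epiblast-like cells (EpiLCs), which resemble the epiblast around implantation. The 15 libraries formed 5 groups of 3. ESCs of day 0 had the genotype Control, and differentiating cells were collected on day 2 and on day 4, each time as Control and as Atg7 KO. ESCs were grown on inactivated mouse embryonic fibroblasts with LIF, PD0325901 (an inhibitor of MEK) and CHIR99021 (an inhibitor of GSK3), and were moved to fibronectin in N2B27 medium with Activin A, bFGF and Knockout Serum Replacement for the transition. Every group is labelled as the same line, and Atg7 KO cells of day 0 were not analysed here. Atg7 encodes an enzyme needed to build autophagosomes. The sources used here do not give how the KO was made or how many clones it comprises. Nor do the labels state that replicates were grown separately, and the p-values therefore measure only how far these libraries spread, which may be technical.

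In meiosis, homologous chromosomes are held along a protein axis (cohesins with REC8, STAG3, SMC1B and RAD21L, and the HORMAD and SYCP2/SYCP3 proteins) and are zipped together by the synaptonemal complex, while DNA breaks are repaired by strand exchange. In the germ line PIWI proteins and their small RNAs silence transposons, and Tudor-domain proteins assemble that machinery in granules near mitochondria. Many promoters of these genes are rich in CpG, gain DNA methylation in the epiblast after implantation, and are also held down in ESCs by the repressor complex PRC1.6, whose MGA/MAX and E2F6/DP1 pairs bind E-box and E2F motifs.

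The promoters are shown first because CpG content and these motifs are what the genes' known silencing acts on. In the RefSeq table of 300-base windows (250 bases before to 50 after a gene's start, GRCm38.p6) 34 of the 40 genes had an entry, and the first window listed per gene was used; Tex11, Tex15, Piwil2, Tdrd6, Spo11 and Majin had none. The 4 genes below had the highest levels in Control cells at day 4 among genes that rose from ESCs to that day. Every CG is in capitals, and the gene starts right after the first 250 bases of each window. The Dazl window (chr17:50293571-50293870, minus strand) holds 28 CpGs, the Sohlh2 window (chr3:55181794-55182093, plus strand) 17, the Taf7l window (chrX:134476441-134476740, minus strand) 17 and the Stra8 window (chr6:34920698-34920997, plus strand) 10.
Dazl: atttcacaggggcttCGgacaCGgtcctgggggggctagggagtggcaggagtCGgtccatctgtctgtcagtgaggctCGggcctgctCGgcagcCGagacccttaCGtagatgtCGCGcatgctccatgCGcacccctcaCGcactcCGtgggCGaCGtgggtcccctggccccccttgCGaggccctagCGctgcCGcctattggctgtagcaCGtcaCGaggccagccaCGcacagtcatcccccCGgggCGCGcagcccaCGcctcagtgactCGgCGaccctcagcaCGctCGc
Sohlh2: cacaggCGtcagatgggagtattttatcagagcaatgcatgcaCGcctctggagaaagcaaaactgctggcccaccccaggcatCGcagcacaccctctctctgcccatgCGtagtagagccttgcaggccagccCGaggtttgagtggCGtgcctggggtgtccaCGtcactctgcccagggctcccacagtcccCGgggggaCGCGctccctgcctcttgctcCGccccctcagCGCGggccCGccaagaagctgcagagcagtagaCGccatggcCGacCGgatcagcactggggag
Taf7l: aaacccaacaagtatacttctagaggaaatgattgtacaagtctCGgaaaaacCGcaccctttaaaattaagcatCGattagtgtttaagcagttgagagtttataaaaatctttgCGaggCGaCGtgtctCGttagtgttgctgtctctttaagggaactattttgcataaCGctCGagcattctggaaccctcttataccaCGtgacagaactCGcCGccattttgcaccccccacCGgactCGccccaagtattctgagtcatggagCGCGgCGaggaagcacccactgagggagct
Stra8: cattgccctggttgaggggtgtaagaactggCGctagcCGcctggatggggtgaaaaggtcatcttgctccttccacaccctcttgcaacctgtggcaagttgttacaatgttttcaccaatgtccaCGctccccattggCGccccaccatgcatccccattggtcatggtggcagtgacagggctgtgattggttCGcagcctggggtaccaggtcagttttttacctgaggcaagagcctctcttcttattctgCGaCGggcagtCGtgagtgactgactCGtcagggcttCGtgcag

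Tex101 and Tdrkh are shown because they had the largest decreases in Atg7 KO cells at day 4, a choice made after their values were seen. Their windows hold 19 CpGs (Tex101, chr7:24672001-24672300, minus strand) and 25 CpGs (Tdrkh, chr3:94412994-94413293, plus strand), again with every CG in capitals. The RefSeq start used for Tex101 lies inside the longer gene of the GENCODE annotation, as does that of Stra8. Neither window holds the letters CACGTG or GCGGGA on either strand.
Tex101: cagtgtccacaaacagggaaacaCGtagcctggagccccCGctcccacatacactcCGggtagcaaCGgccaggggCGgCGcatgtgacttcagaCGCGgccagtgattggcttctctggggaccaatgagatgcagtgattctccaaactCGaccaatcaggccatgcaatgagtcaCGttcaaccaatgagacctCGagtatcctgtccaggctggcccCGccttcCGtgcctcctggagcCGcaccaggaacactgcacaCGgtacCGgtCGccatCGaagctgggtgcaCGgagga
Tdrkh: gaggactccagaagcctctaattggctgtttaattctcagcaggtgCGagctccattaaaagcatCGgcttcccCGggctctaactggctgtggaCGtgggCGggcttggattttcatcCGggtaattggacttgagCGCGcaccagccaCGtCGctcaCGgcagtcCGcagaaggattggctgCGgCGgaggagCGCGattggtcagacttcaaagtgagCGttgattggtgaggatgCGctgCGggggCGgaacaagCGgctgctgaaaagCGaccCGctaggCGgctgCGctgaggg

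Hormad1 and Sycp3, both genes of the chromosome axis, are shown because their windows hold 2 copies of the E-box CACGTG, here in capitals (Hormad1, chr3:95559427-95559726, plus strand; Sycp3, chr10:88459337-88459636, plus strand). The copies begin 57 and 20 bases before the start in Hormad1 and 64 and 43 bases before it in Sycp3. Tdrd9 was the other gene with 2 copies.
Hormad1: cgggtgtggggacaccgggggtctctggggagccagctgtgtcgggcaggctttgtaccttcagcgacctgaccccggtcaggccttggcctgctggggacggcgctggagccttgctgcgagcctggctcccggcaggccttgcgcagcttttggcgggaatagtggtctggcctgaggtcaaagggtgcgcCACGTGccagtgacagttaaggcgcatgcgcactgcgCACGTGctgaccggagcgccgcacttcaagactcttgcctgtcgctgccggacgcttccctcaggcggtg
Sycp3: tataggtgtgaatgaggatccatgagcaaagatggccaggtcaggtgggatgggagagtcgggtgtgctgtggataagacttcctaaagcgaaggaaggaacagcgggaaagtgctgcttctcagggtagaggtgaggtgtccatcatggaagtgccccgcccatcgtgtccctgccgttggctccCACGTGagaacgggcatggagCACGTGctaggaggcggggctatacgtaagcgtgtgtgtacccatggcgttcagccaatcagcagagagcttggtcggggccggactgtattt

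**Figure D1:**
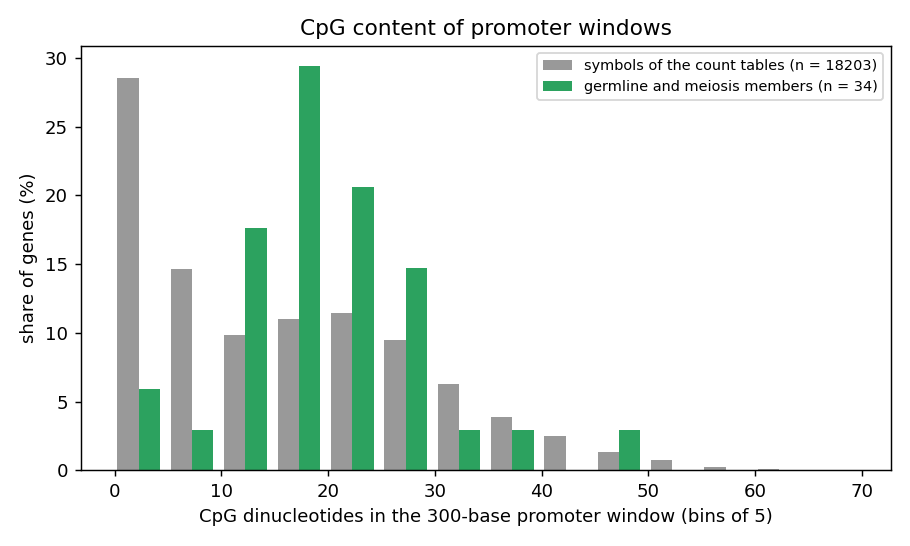
Share of genes (vertical axis, in percent) by the number of CpG dinucleotides in the 300-base promoter window (horizontal axis, bins of 5), for 34 germline and meiosis genes (green) and for the 18203 symbols of the count tables with a window (grey). The germline and meiosis genes have a median of 18.5 CpGs, against 13 for the symbols of the tables.

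Of the 34 windows, 31 (91.2%) held 10 or more CpGs, against 56.8% of the windows of all symbols in the count tables. The E-box CACGTG, which reads the same on both strands, was present in 13 of 34 windows (38.2%), against 8.15% of all. GCGGGA, the E2F6-type motif counted on either strand (TCCCGC on the other), was present in 14 (41.2%), against 25.6%, and 7 windows (20.6%) held both, against 2.72%. The 16 CACGTG copies began between 246 and 11 bases before the start, with a median of 71 bases, and 12 of the 16 lay within 100 bases of it. The fewest CpGs were found in Rad21l, with 2, and the most in Tdrd5, with 48. These are descriptions of letters in 1 window per gene and not of bound sites. Another window of a gene can differ, as in Tdrd7, with 4 CpGs in the first window and 32 in each of its others. The genes were chosen in part for silencing by promoter methylation, so the contrast with all symbols is partly built into the choice.

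Levels below are CPM (counts scaled to a common library size and for composition), and log2 fold changes are given with their standard error from 1 edgeR quasi-likelihood model fitted to all libraries. A gene is said to have risen or fallen where the Benjamini-Hochberg adjusted p over all tested genes was below 0.05. Totals lay between 14059237 and 23371546 counts per library. Atg7 was lower in the KO libraries, at 7.16 ± 0.349 against 13.6 ± 1.27 CPM at day 2 and 11.9 ± 1.28 against 19.5 ± 0.379 CPM at day 4 (mean ± SD, n = 3), and it was not absent, as a count over the whole gene cannot show which exons are missing. Hprt, which the E14TG2 line is known to lack in function, was between 182.6 and 203.4 CPM in the libraries labelled ESC and between 1.6 and 2.9 CPM in the other 12. The comparisons among those 12 libraries are therefore given first, though the spread behind their p-values was estimated over all 15 libraries, ESC included. Every comparison with the ESC libraries rests on these 3. Whether these come from the same line as the other 12 was not tested, so day 0 and a difference of line cannot be told apart, and values against ESC are differences between these libraries. Summed levels of 10 fibroblast genes, which mark feeder cells, were 1813, 943 and 237 CPM in the ESC libraries, 258 to 305 CPM in Control cells and 452 to 822 CPM in KO cells at day 2, and 75.0 to 83.2 CPM and 116 to 161 CPM at day 4. The fibroblast sum thus differed with day and with genotype. Singly, 5 of the 10 genes were called higher in KO cells at day 2 and 1 at day 4, against 20.4% and 19.5% of all tested genes. The part of fibroblast RNA was examined only by a fit with the mean log2 level of Col1a1, Col1a2 and Col3a1 as a covariate, called the collagen fit below. Its slope comes from spread within groups, and the fibroblast sums spread most among the ESC libraries. Between the other groups these sums did not overlap, so there fibroblast RNA and group cannot be told apart. In bulk RNA fewer cells that express a gene and less RNA per cell cannot be told apart.

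**Figure D2:**
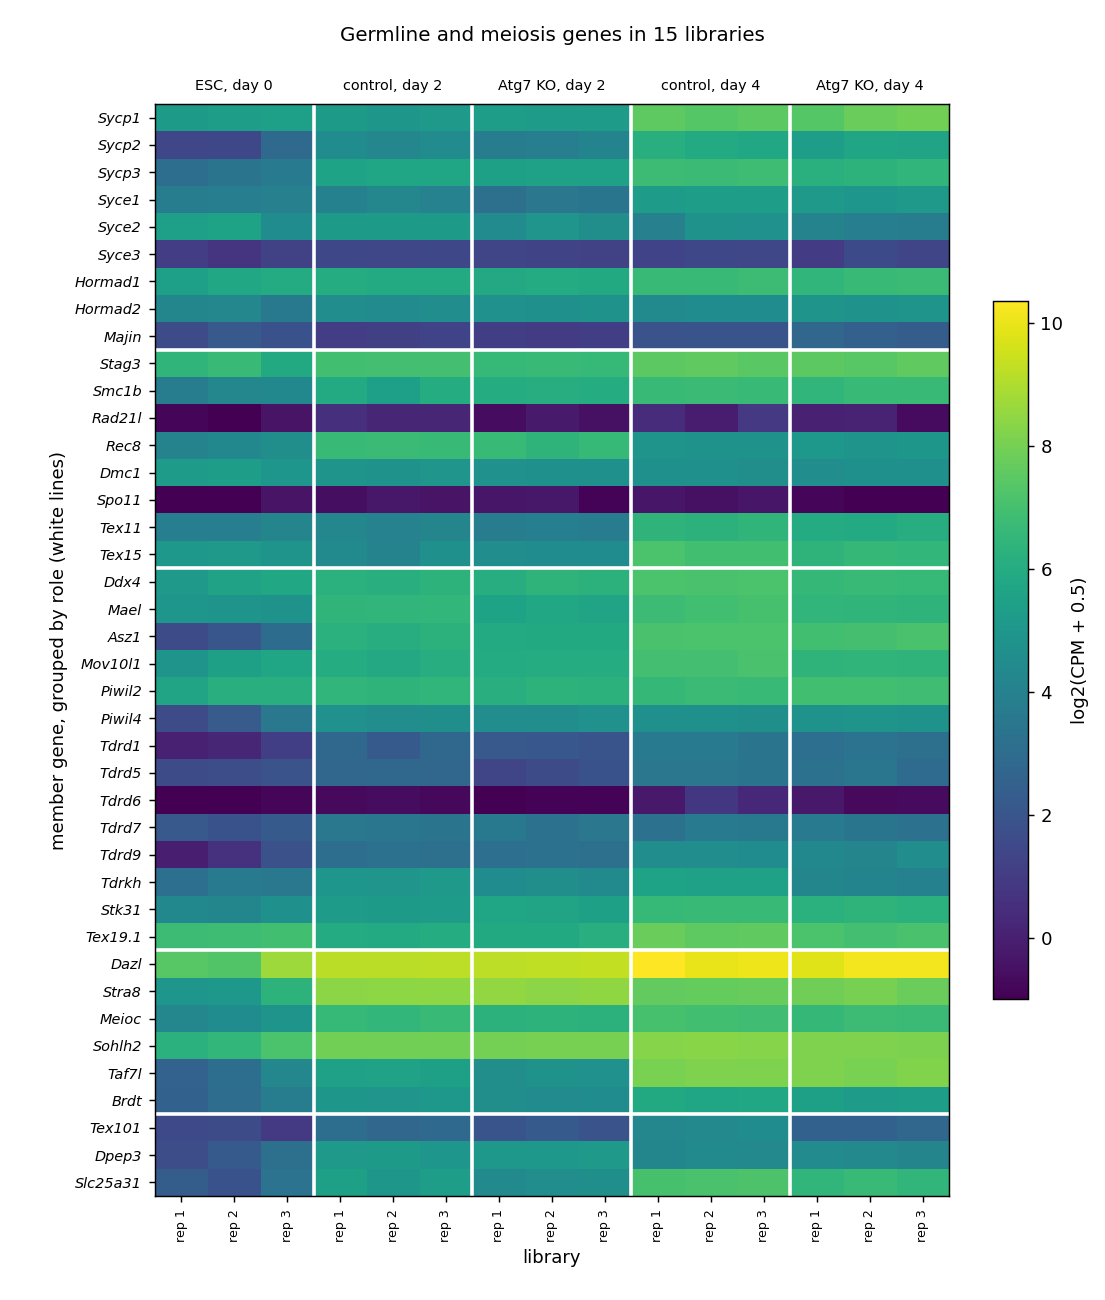
Level of each of the 40 genes (rows, grouped by role) in each of the 15 libraries (columns, grouped by day and genotype), as log2(CPM + 0.5) in colour. Dazl is the brightest row, most rows brighten from left to right, and Spo11 and Tdrd6 stay dark in every library.

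Per kilobase of exon, Dazl, an RNA-binding protein needed for germ cell development, had the highest level of the 40 in Control cells at day 4, at 298 CPM per kb. It was followed by the transcription factor Sohlh2 at 133, the TFIID-related gene Taf7l at 127, the meiotic entry gene Stra8 at 113 and Tex19.1, a germline transposon-control gene, at 107 CPM per kb. At the other end Rad21l was at 0.525 and Tdrd6 at 0.112 CPM per kb. In the ESC libraries the order began with Dazl at 65.03, Tex19.1 at 61.8 and Sohlh2 at 43.6 CPM per kb. Dazl and Tex19.1 were thus adjacent in ESCs, and the 3 Dazl libraries there spread on both sides of the level of Tex19.1 on this scale.

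Between day 2 and day 4 in Control cells, 27 of the 38 tested genes rose and 4 fell, where 33.9% of all tested genes rose and 34.6% fell (68.4% in all). The 3 libraries of day 4 lay above those of day 2 without overlap for 28 genes and below them for 5, against 37.5% and 38.7% of all tested genes. Their median log2 fold change was 0.83, against -0.01 over all tested genes. The genes that rose came from every role, with the largest increases in Taf7l, Tex15 and Sycp1. The 4 that fell were Rec8, Stra8, Dpep3 and Syce2.

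**Figure D3:**
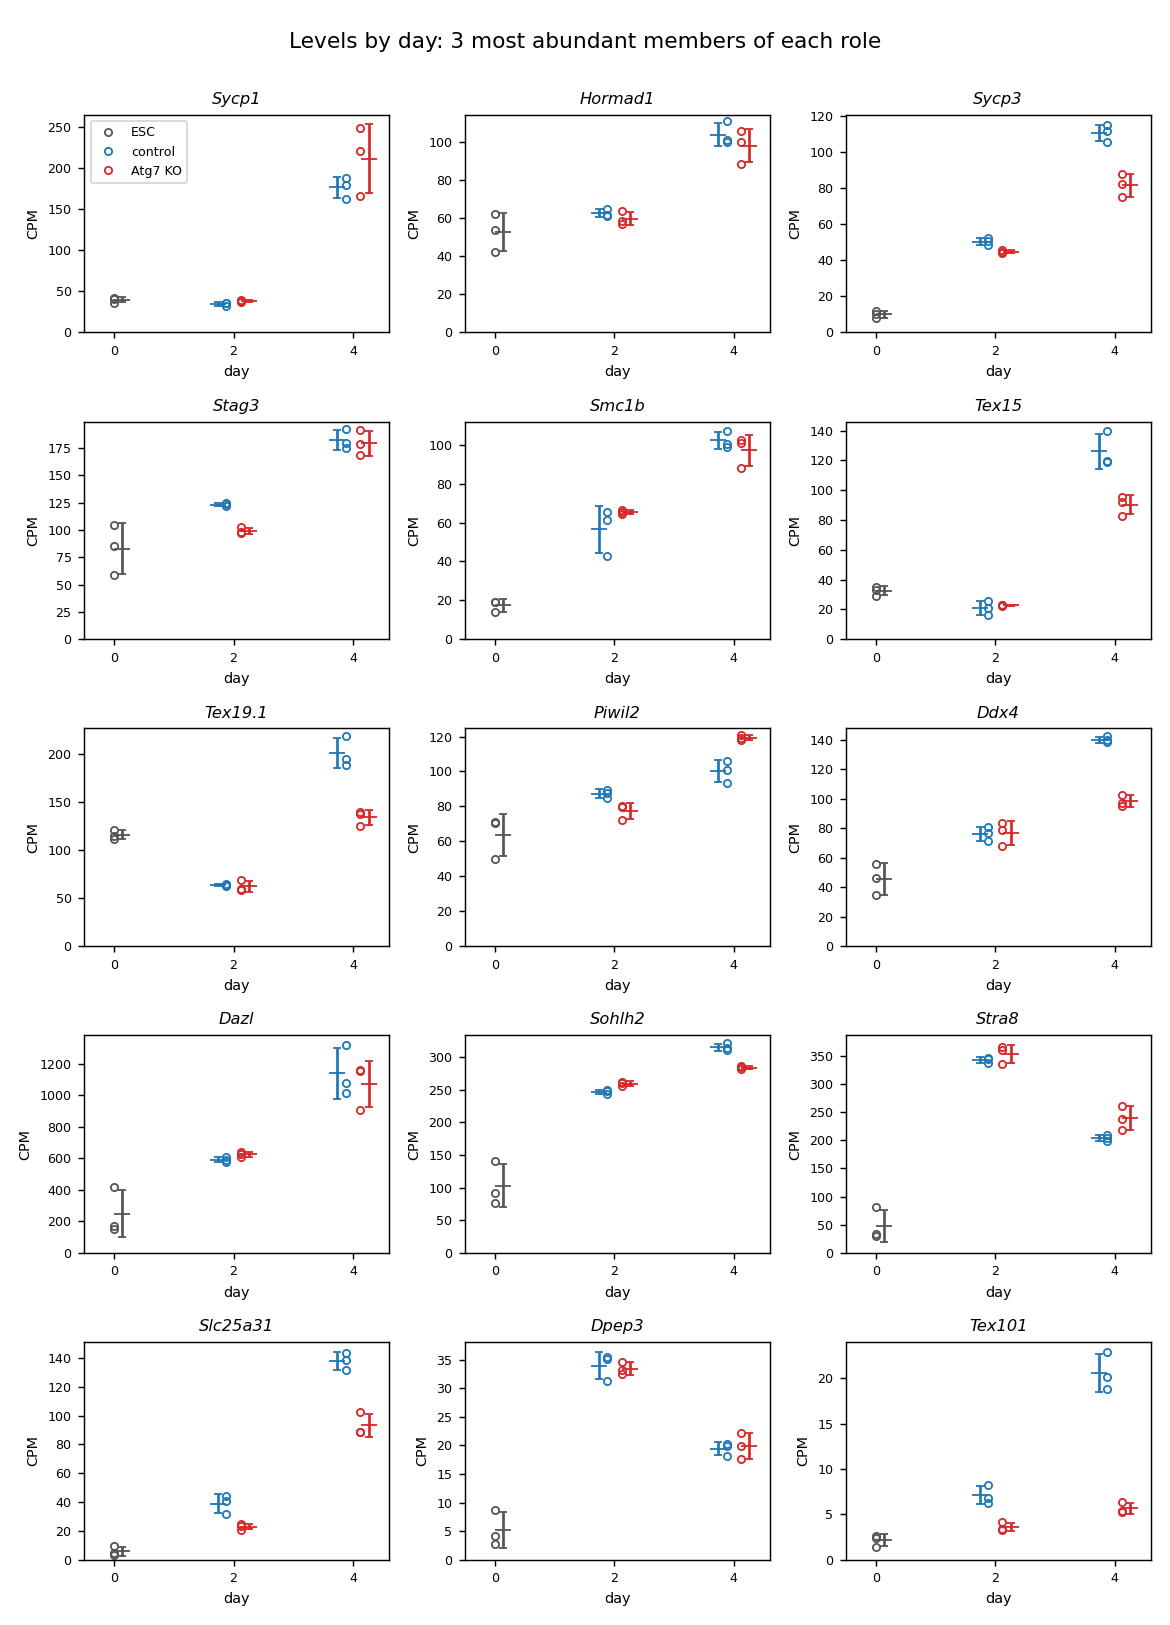
CPM (vertical axes, from 0) by day (horizontal axes) for the 3 most abundant genes of each role, with open circles for single libraries and bars for the mean and SD of 3 libraries, in ESCs (grey), Control (blue) and Atg7 KO cells (red). Most panels climb to day 4, Stra8 and Dpep3 peak at day 2, and the KO circles lie below the Control circles at day 4 in the panels of Sycp3, Tex15, Tex19.1, Ddx4, Sohlh2, Slc25a31 and Tex101.

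Among the 9 genes of the synaptonemal complex and axis, 6 rose and 1 fell from day 2 to day 4. Sycp1, which forms the transverse filaments of the complex, was at 35.7, 31.7 and 35.3 CPM in the day 2 Control libraries and at 188, 163 and 179.7 CPM at day 4, a log2 fold change of 2.37 ± 0.12 (adjusted p = 7.89e-11). The lowest day 4 library was far above the highest of day 2. Sycp3, an axis component, went from 48.4, 50.4 and 52.03 to 111, 106 and 115 CPM (1.14 ± 0.089, adjusted p = 1.13e-08), and Hormad1, which monitors synapsis, from 64.8, 61.3 and 61.8 to 101, 99.8 and 111 CPM (0.73 ± 0.10, adjusted p = 1.01e-05). Neither overlapped between the days. Of the exon bases of Sycp3, 52.2% are shared with Chpt1 on the opposite strand, and the strand setting of the counting is not stated in the labels; Chpt1 went the other way (-0.40 ± 0.13). Sycp2, Syce1 and Majin, the last of which tethers telomeres to the nuclear envelope, also rose, by 1.56 ± 0.21, 1.22 ± 0.10 and 0.91 ± 0.21. Syce2, a central element gene, was at 36.6, 36.04 and 36.04 CPM at day 2 and 14.8, 26.8 and 26.7 CPM at day 4 (-0.67 ± 0.23, adjusted p = 0.015). It fell, but 1 of the day 4 libraries was far below the other two, and without Control day 4 replicate 1 the value was -0.44 with an adjusted p of 0.0881. Syce3 and Hormad2 did not pass the test, at -0.073 ± 0.23 and -0.053 ± 0.13.

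In the 7 tested genes of cohesin and recombination, 4 rose and 1 fell. Tex15, which acts in the repair of meiotic breaks, was at 21.04, 16.3 and 25.5 CPM at day 2 and at 139.9, 119 and 119 CPM at day 4 (2.59 ± 0.12, adjusted p = 5.35e-11). Tex11, an X-linked gene of crossover formation, rose by a like amount, 2.24 ± 0.086, from 18.7, 16.01 and 17.7 to 84.01, 77.9 and 85.3 CPM. For both genes the 2 days were clearly apart. The cohesin genes split. Stag3 went from 122, 123 and 124 to 179, 192 and 175 CPM (0.57 ± 0.13, adjusted p = 0.000874) and Smc1b from 61.4, 42.8 and 65.2 to 100.4, 107 and 99.1 CPM (0.86 ± 0.13, adjusted p = 1.62e-05). Rec8, the kleisin that holds sister chromatids together in meiosis, went from 100.4, 108 and 103 to 28.6, 27.7 and 28.4 CPM (-1.88 ± 0.10, adjusted p = 1.94e-10). Stag3 and Smc1b were thus higher and Rec8 lower in all 3 day 4 libraries than in any of day 2. Dmc1, the meiotic strand-exchange enzyme, did not pass the test at -0.20 ± 0.093 (adjusted p = 0.0625), nor did Rad21l at 0.24 ± 0.49, where levels stayed below 2 CPM. Spo11 lay between 0 and 0.333 CPM over all 15 libraries.

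Of the 13 tested piRNA and germ granule genes, 10 rose and the other 3 also had log2 fold changes above 0. Tex19.1 was at 63.4, 62.03 and 64.4 CPM at day 2 and 218, 189 and 195 CPM at day 4 (1.67 ± 0.072, adjusted p = 1.99e-11). Its related copy Tex19.2, with which reads could be shared, also rose (0.73 ± 0.27). Ddx4, the RNA helicase of germ granules known as Vasa, went from 76.7, 71.2 and 80.7 to 139.6, 138 and 142 CPM (0.88 ± 0.12, adjusted p = 5.19e-06). Stk31 rose by 1.41 ± 0.093, Tdrd9, a helicase with a Tudor domain, by 1.43 ± 0.24, Mov10l1, the helicase that starts piRNA processing, by 1.02 ± 0.12, and Tdrd1 by 1.00 ± 0.22. Asz1, a mitochondrial anchor of the granules, went from 75.9, 68.2 and 78.1 to 136, 143 and 143 CPM (0.92 ± 0.14). These genes had no library of day 4 within the range of day 2. Smaller increases were found for Tdrd5 (0.74 ± 0.16), Tdrkh (0.53 ± 0.11) and Mael (0.45 ± 0.072). The PIWI genes did not pass the test: Piwil2 was at 89.4, 84.6 and 87.8 CPM and then 93.6, 106 and 101 CPM (0.20 ± 0.10, adjusted p = 0.0794), and Piwil4 differed by 0.038 ± 0.25. Tdrd7 was likewise not called, at 0.063 ± 0.15. Tdrd6 was between 0.0864 and 0.142 CPM at day 2 and between 0.361 and 1.31 CPM at day 4, too low for the test.

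Of the 6 regulators, 5 rose and Stra8 fell. Taf7l, an X-linked partner of the transcription machinery in germ cells, was at 44.8, 46.1 and 43.6 CPM at day 2 and at 274, 289 and 290.3 CPM at day 4 (2.67 ± 0.20, adjusted p = 8.43e-09). Dazl went from 592, 575 and 606 to 1320.0, 1016 and 1080.4 CPM (0.95 ± 0.25, adjusted p = 0.00306). Both had separate ranges at the 2 days, with a wider spread for Dazl at day 4. Sohlh2 went from 249.5, 243 and 248 to 311, 321 and 314 CPM (0.35 ± 0.13, adjusted p = 0.0251), and without any 1 of these 6 libraries other than Control day 4 replicate 1 its adjusted p was 0.0534 to 0.0703 (log2 fold change 0.34 to 0.36). Meioc, which keeps cells in meiotic prophase, and Brdt, a testis bromodomain protein, rose by 0.35 ± 0.10 and 0.80 ± 0.16. Stra8, which retinoic acid induces at meiotic entry, was at 337, 345 and 347 CPM at day 2 and at 199, 205 and 209 CPM at day 4 (-0.75 ± 0.22, adjusted p = 0.006). Its day 4 libraries were all below those of day 2.

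The 3 surface and metabolism genes went both ways. Slc25a31, the germ cell ADP/ATP carrier, was at 44.1, 31.6 and 40.97 CPM at day 2 and at 132, 139 and 144 CPM at day 4 (1.83 ± 0.18, adjusted p = 1.53e-07). Tex101, a surface glycoprotein of germ cells, was at 8.20, 6.24 and 6.83 and then 18.8, 20.1 and 22.9 CPM (1.54 ± 0.17, adjusted p = 5.58e-07). Dpep3, a membrane dipeptidase, went from 35.2, 35.6 and 31.2 to 18.2, 20.2 and 19.96 CPM (-0.81 ± 0.20, adjusted p = 0.00196). For each of these genes the days did not overlap.

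In the collagen fit 17 of the 38 genes rose and 5 fell between day 2 and day 4, where 27.7% of all tested genes rose and 30.9% fell in that fit. The calls that ended there were Asz1 (0.096), Majin (0.73), Sycp2 (0.39), Tdrd5 (0.39), Tdrd9 (0.29) and Tdrkh (0.30) with the same sign, and Dazl (-0.12), Brdt (-0.090), Meioc (-0.074), Tdrd1 (-0.16) and Syce2 (0.19) with the other sign, while Sohlh2 was lower (-0.31, adjusted p = 0.0141). Values moved by over 1.5 times, with the call kept, for Taf7l (1.59), Slc25a31 (1.01), Ddx4 (0.47), Mov10l1 (0.53), Hormad1 (0.43), Stag3 (1.09), Tex101 (2.36), Stra8 (-1.93) and Dpep3 (-1.89). The levels of these collagen genes were lower in every Control library of day 4 than in any of day 2, so within Control cells the collagen level and the day cannot be told apart.

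**Figure D4:**
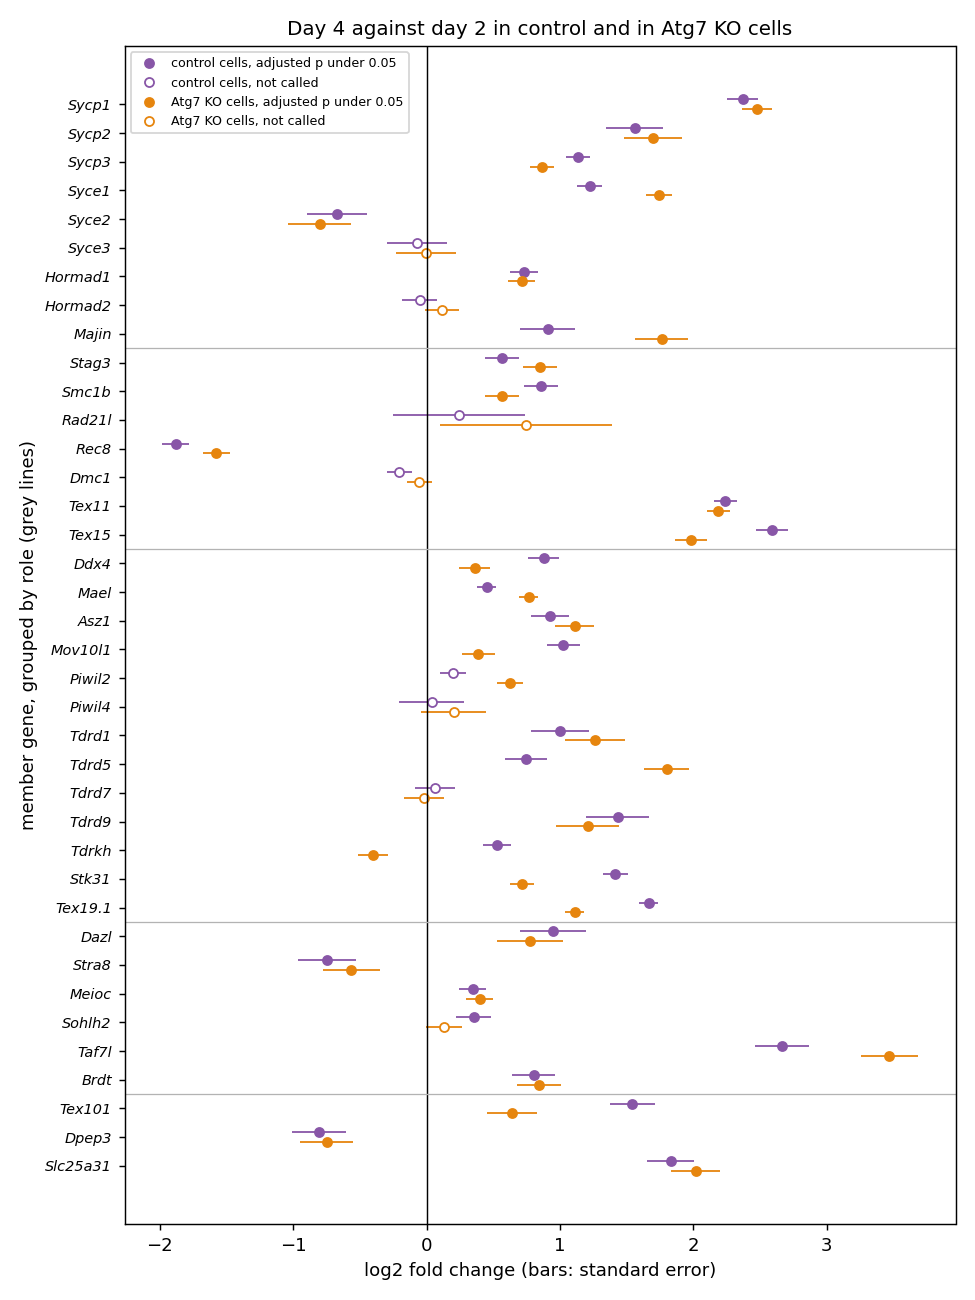
Log2 fold change of day 4 against day 2 (horizontal axis) for the 38 tested genes (rows, grouped by role) in Control (purple) and Atg7 KO cells (orange), with bars for the standard error and filled points for an adjusted p under 0.05. Most points of both colours lie right of 0, Rec8, Stra8, Dpep3 and Syce2 lie left of it in both, and Tdrkh lies right of 0 in Control and left of it in KO cells.

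From the libraries labelled ESC to Control cells at day 2, 30 of the 38 genes were called higher and 4 lower, where 35.6% and 34.9% of all tested genes were called (70.5% in all), with a median log2 fold change of 1.36 against 0.02 for all. At day 4 against ESC, 34 were called higher and 2 lower (36.2% and 35.6% of all tested genes, 71.7% in all), with a median of 2.06 against 0.02 for all (0.10 with upper quartile scaling). Libraries did not overlap, with day 2 above ESC for 30 genes and below for 5 (35.6% and 33.5% of all tested genes), and with day 4 above ESC for 35 and below for 1 (35.5% and 34.2%). The largest difference was in Asz1. The step from ESC to day 2 and the step from day 2 to day 4 share the Control libraries of day 2, so their values for a gene are given side by side only. All 13 tested piRNA and granule genes, all 6 regulators and all 3 surface and metabolism genes were higher at day 4 than in the ESC libraries, as were 6 of 9 synaptonemal complex and axis genes and 6 of 7 cohesin and recombination genes.

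Asz1 was at 2.55, 3.65 and 7.65 CPM in the ESC libraries, which gave log2 fold changes of 4.00 ± 0.19 at day 2 and 4.92 ± 0.19 at day 4 (adjusted p = 1.98e-12). Taf7l was at 5.37, 8.05 and 18.6 CPM (2.07 ± 0.24 and 4.73 ± 0.24), and Slc25a31 at 4.63, 3.18 and 9.50 CPM (2.74 ± 0.23 and 4.57 ± 0.22). All 3 genes were lower in each ESC library than in any Control library of day 2 or day 4. Stra8, at 30.4, 33.4 and 80.9 CPM in the ESC libraries, was higher at day 2 by 2.83 ± 0.24 (adjusted p = 2.42e-08), and Rec8 and Dpep3 by 2.38 ± 0.11 and 2.70 ± 0.23. From day 2 to day 4 these genes had the values given above, -0.75 ± 0.22, -1.88 ± 0.10 and -0.81 ± 0.20. Rec8 was at 16.5, 19.22 and 24.1 CPM and Dpep3 at 2.75, 4.13 and 8.71 CPM in ESC.

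Tex15, Tex19.1, Majin and Dmc1 were lower at day 2 than in the ESC libraries. Tex19.1 was at 112, 115 and 121 CPM in ESC, and day 2 differed from it by -0.87 ± 0.071 (adjusted p = 1.72e-08). Tex15, at 33.4, 34.9 and 29.1 CPM in ESC, had -0.63 ± 0.13, and Majin, at 2.55, 3.99 and 3.10 CPM, had -0.87 ± 0.21. The day 2 libraries of these genes lay below every ESC library. Tex19.1 and Tex15 were above the ESC level at day 4 (0.79 ± 0.070 and 1.96 ± 0.12), while Majin did not differ detectably from it (0.041 ± 0.20, adjusted p = 0.865). Dmc1 was at 38.6, 40.3 and 30.9 CPM in ESC and was lower at day 2 (-0.34 ± 0.092, adjusted p = 0.00324), and with Syce2 (-0.72 ± 0.23) it was lower at day 4 than in ESC (-0.55 ± 0.094). Syce2, at 42.05, 47.6 and 22.8 CPM in ESC, lost that call without Control day 4 replicate 1 (-0.48, adjusted p = 0.0594) and without ESC replicate 2 (-0.51, adjusted p = 0.0666).

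The ESC libraries differed among themselves. Replicate 3, with the least fibroblast RNA, had the highest level of 29 of the 38 genes, where it was the highest for 41.2% of all tested genes. Dazl was at 172, 154 and 419 CPM, so replicate 3 was 2.57 times the mean of the others, and it still lay below every Control library of day 2. Sohlh2 was at 76.4, 92.4 and 141 CPM. Sycp1, Sycp3, Hormad1, Stag3, Smc1b, Ddx4, Piwil2 and Tex101 had means of 39.8 ± 3.28, 10.03 ± 2.07, 52.8 ± 10.1, 82.7 ± 23.1, 17.4 ± 3.12, 45.5 ± 10.8, 63.6 ± 12.01 and 2.12 ± 0.657 CPM in ESC (± SD, n = 3). Without ESC replicate 3 and KO day 2 replicate 2, 32 of 39 tested were higher and 4 lower at day 2, against 37.7% and 35.7% of all tested genes. At day 4, 35 were higher and 2 lower in that fit, against 38.1% and 36.1%. Without ESC replicate 3 alone, the day 2 value of Rad21l was 4.21 in place of 2.67, that of Stag3 0.38 in place of 0.57, that of Hormad2 0.30 in place of 0.50 and that of Hormad1 0.38 in place of 0.24. At day 4 the value of Rad21l was then 4.47 in place of 2.91 and that of Hormad2 0.25 in place of 0.45, and without ESC replicate 1 the day 2 value of Piwil2 was 0.30 in place of 0.46. Hormad1 and Syce1 (0.24 each) lost their day 2 calls without ESC replicate 1 (0.10 and 0.20), ESC replicate 2 (adjusted p = 0.08 and 0.0861) or Control day 2 replicate 2 (adjusted p = 0.0683 and 0.211), and Hormad1 also without Control day 2 replicate 1 or 3 (adjusted p = 0.117 and 0.0755). Both calls also ended with DESeq2 (adjusted p = 0.0552 and 0.0639), with RLE scaling (0.0605 and 0.0561) and with only the groups compared (0.12 and 0.123). In the collagen fit 26 genes were higher and 3 lower at day 2, where Dmc1 (-0.14), Mov10l1 (0.28), Piwil2 (0.26), Rad21l (2.10), Hormad1 (0.028) and Syce1 (0.23) lost their calls, and 25 higher at day 4, with neither decrease called. Of all tested genes 30.4% were higher and 30.4% lower at day 2 in that fit, and 20.5% and 24.7% at day 4. Piwil4 (-0.21), Rec8 (-0.31) and Syce2 (0.84) had the other sign at day 4 there, and Dazl (0.46), Stra8 (0.15), Dpep3 (0.12), Hormad1 (0.45), Piwil2 (0.18), Rad21l (1.51), Tdrd7 (1.08) and Dmc1 (-0.077) were no longer called.

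In Atg7 KO cells at day 2, 1 of the 38 genes was higher than in Control cells and 12 were lower, where 20.4% of all tested genes were higher and 21.4% lower (41.8% in all). Every KO library lay above every Control library for 5 genes and below for 21, against 29.6% and 31.7% of all tested genes. The median log2 fold change was -0.16, against -0.01 for all tested genes. Lower were 4 of 13 piRNA and granule genes, 3 of 6 regulators, 2 of 7 cohesin and recombination genes, 2 of 3 surface and metabolism genes and 1 of 9 synaptonemal complex and axis genes. The gene that was higher was Stk31.

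Tdrd5, a Tudor-domain gene of the granules, was at 6.19, 6.52 and 6.22 CPM in Control and 2.08, 2.54 and 3.09 CPM in KO cells at day 2 (-1.29 ± 0.17, adjusted p = 2.49e-05). Tex101 was at 8.20, 6.24 and 6.83 against 3.42, 4.12 and 3.26 CPM (-0.97 ± 0.18, adjusted p = 0.000508). Neither gene overlapped between genotypes. Mael, a factor of piRNA-guided silencing, was at 86.6, 87.6 and 91.7 against 48.4, 54.6 and 49.6 CPM (-0.80 ± 0.073, adjusted p = 7.08e-07). Taf7l was at 44.8, 46.1 and 43.6 against 23.8, 27.1 and 26.3 CPM (-0.80 ± 0.21, adjusted p = 0.0058), and Slc25a31 at 44.1, 31.6 and 40.97 against 20.9, 23.1 and 24.9 CPM (-0.76 ± 0.19, adjusted p = 0.00397). The 3 KO libraries were below the 3 Control libraries for each of them. Syce1, a central element gene, was also lower (-0.76 ± 0.10), as were Tdrkh (-0.51 ± 0.11) and Tex11 (-0.32 ± 0.090). Stk31 was at 37.2, 36.4 and 38.2 CPM in Control and 51.5, 48.8 and 44.1 CPM in KO cells (0.37 ± 0.093, adjusted p = 0.00486), all KO libraries above all Control libraries.

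The largest value at day 2 was that of Rad21l, at 0.949, 0.661 and 0.648 CPM in Control and 0.149, 0.374 and 0.214 CPM in KO cells (-1.55 ± 0.57, adjusted p = 0.0386), levels of few reads. It was no longer called with DESeq2 (-1.59, adjusted p = 0.0524), nor without any 1 of these libraries other than KO day 2 replicate 2 (-1.32 to -1.65, adjusted p 0.0612 to 0.129). The calls of Tdrd1 (-0.61 ± 0.23), Brdt (-0.47 ± 0.17) and Meioc (-0.29 ± 0.10) also ended when a single library of these groups was left out, with adjusted p up to 0.153, 0.0996 and 0.123. Brdt lost its call with each of the 6 libraries, and Tdrd1 and Meioc with each but Control day 2 replicate 2. In the collagen fit 8 genes were higher and 8 lower, near the 21.4% and 20.9% of all tested genes in that fit. Fibroblast sums of the 2 genotypes did not overlap at day 2, so that fit cannot separate fibroblast RNA from genotype. That fit had Dazl (0.64), Sohlh2 (0.42), Stra8 (0.66) and Dpep3 (0.55) among the higher genes, and Brdt (-0.0017), Meioc (-0.070), Rad21l (-1.09), Slc25a31 (-0.32), Taf7l (-0.23), Tex11 (-0.22) and Tdrd1 (0.0013) no longer lower. With only the 6 libraries of day 2 in the fit, 4 genes were higher and 19 lower, where 28.8% and 28.2% of all genes tested in it were. Without ESC replicate 3 and KO day 2 replicate 2 the counts were 2 and 16 of 39, where 23.1% and 24.2% of all tested genes were called.

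Dazl, Sohlh2 and Stra8, the genes with the highest CPM at day 2, did not pass the test. Dazl was at 609.8, 625 and 640.0 CPM in KO cells (0.081 ± 0.25, adjusted p = 0.82), Sohlh2 at 255, 261 and 262 CPM (0.073 ± 0.13) and Stra8 at 365, 336 and 359.6 CPM (0.044 ± 0.21). Dazl and Sohlh2 nevertheless had every KO library above every Control library, and Stra8 overlapped. The standard errors of these genes include the spread among the ESC libraries, where Dazl ran from 154 to 419 CPM. Of the other abundant genes Sycp1 (0.15 ± 0.12), Hormad1 (-0.065 ± 0.10), Stag3 (-0.31 ± 0.13), Smc1b (0.22 ± 0.13), Tex15 (0.13 ± 0.12), Ddx4 (0.0089 ± 0.12), Piwil2 (-0.17 ± 0.10), Tex19.1 (-0.028 ± 0.071), Sycp3 (-0.17 ± 0.090), Rec8 (-0.16 ± 0.094), Asz1 (-0.31 ± 0.14) and Dpep3 (-0.023 ± 0.19) were not called either. Stag3 was lower in each KO library of day 2 (97.1, 103 and 98.003 CPM) than in any Control library.

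At day 4, 3 genes were higher in KO than in Control cells and 13 were lower, where 19.5% of all tested genes were higher and 18.1% lower (37.6% in all). Every KO library lay above every Control library for 6 genes and below for 17, against 27.6% and 27.2% of all tested genes. The median log2 fold change was -0.22, against -0.01 for all. Lower were 6 of 13 piRNA and granule genes, 2 of 9 synaptonemal complex and axis genes, 2 of 7 cohesin and recombination genes, 2 of 3 surface and metabolism genes and 1 of 6 regulators. The genes that were higher were Majin, Hormad2 and Piwil2.

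**Figure D5:**
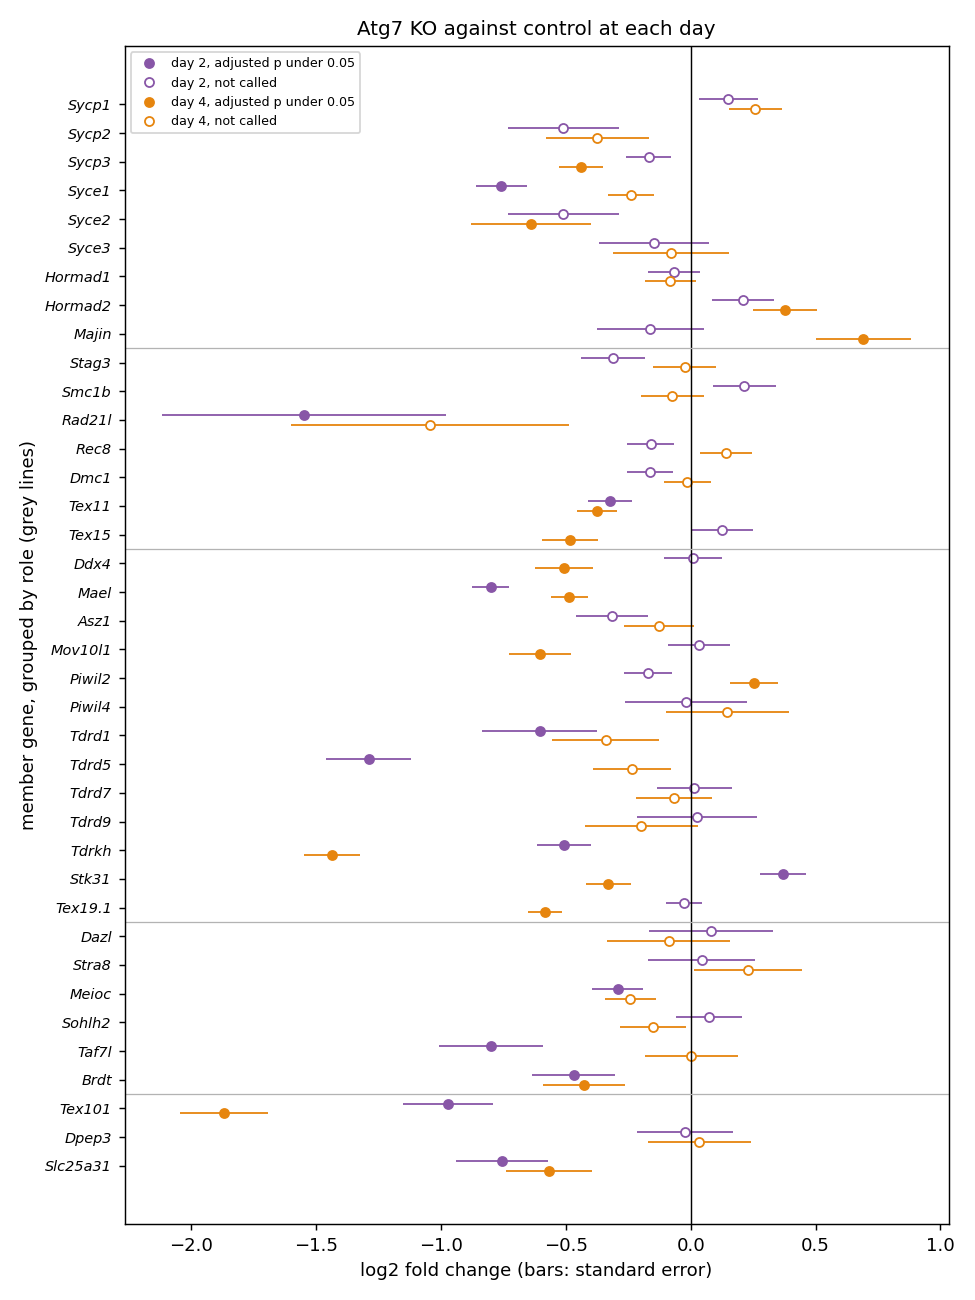
Log2 fold change of Atg7 KO against Control cells (horizontal axis) at day 2 (purple) and day 4 (orange) for the 38 tested genes (rows, grouped by role), with bars for the standard error and filled points for an adjusted p under 0.05. Most filled points lie left of 0, Tex101 at -1.87 and Tdrkh at -1.43 on day 4 lie farthest left among the day 4 points, and Stk31 lies right of 0 at day 2 and left of it at day 4.

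Tex101 was at 18.8, 20.1 and 22.9 CPM in Control and 5.22, 5.36 and 6.33 CPM in KO cells at day 4 (-1.87 ± 0.17, adjusted p = 1.01e-06). Tdrkh, whose protein binds PIWI proteins on mitochondria, was at 48.1, 44.4 and 44.8 against 18.2, 17.2 and 15.3 CPM (-1.43 ± 0.11, adjusted p = 2.02e-07). The 2 genotypes were far apart in both genes. Of the exon bases of Tdrkh, 36.7% are shared with Oaz3 on the opposite strand, which was also lower in KO cells (-1.42 ± 0.35), at 1.75 ± 0.242 against 0.651 ± 0.12 CPM. Tex19.1 was at 218, 189 and 195 against 139, 125 and 137 CPM (-0.58 ± 0.069, adjusted p = 9.51e-06), and Ddx4 at 139.6, 138 and 142 against 95.2, 103 and 97.3 CPM (-0.51 ± 0.12, adjusted p = 0.00267). Mov10l1 was at 125, 124 and 136 against 84.7, 85.1 and 83.7 CPM (-0.60 ± 0.12), and Mael at 109, 121 and 133 against 89.4, 85.8 and 84.2 CPM (-0.49 ± 0.072). For each of these 4 genes, and for Stk31 (-0.33 ± 0.091, 76.03, 84.5 and 76.4 CPM in KO cells), no KO library reached a Control library.

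Outside the piRNA group, Tex15 was at 82.9, 95.6 and 92.4 CPM in KO cells (-0.48 ± 0.11, adjusted p = 0.00304), Sycp3 at 74.8, 82.2 and 87.6 CPM (-0.44 ± 0.088, adjusted p = 0.000928) and Tex11 at 63.5, 60.8 and 66.4 CPM (-0.38 ± 0.080, adjusted p = 0.00153). Each was below its Control range given above. Slc25a31 was at 88.6, 102 and 88.7 CPM (-0.57 ± 0.17, adjusted p = 0.0162), a call that ended with DESeq2 (adjusted p = 0.0844) and without Control replicate 3 or KO replicate 1 or 3 of day 4 (-0.53 to -0.54, adjusted p 0.0568 to 0.0643). Brdt (-0.43 ± 0.16) lost its call when any 1 of the 6 libraries was left out (adjusted p 0.065 to 0.145). Syce2, at 16.2, 14.01 and 13.6 CPM in KO cells (-0.64 ± 0.24), lost it without any 1 of them except Control replicate 1 (adjusted p 0.0663 to 0.179).

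Majin was at 3.25, 3.31 and 3.36 CPM in Control and 6.32, 5.07 and 4.63 CPM in KO cells at day 4 (0.69 ± 0.19, adjusted p = 0.00914), and without KO day 4 replicate 1 the value was 0.56 with an adjusted p of 0.0577. Piwil2 was at 121, 119 and 118 CPM in KO cells (0.25 ± 0.10, adjusted p = 0.048) and Hormad2 at 20.99, 22.6 and 22.6 against 28.8, 28.1 and 29.1 CPM (0.38 ± 0.13, adjusted p = 0.0297). All 3 had every KO library above every Control library. The calls of Piwil2 and Hormad2 ended when any 1 of the 6 libraries was left out (adjusted p 0.0529 to 0.163 and 0.0571 to 0.0937). The number of higher genes was then 1. Without KO day 4 replicate 1, where the call of Majin ended too, that gene was another of the list.

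The most abundant regulators were not called at day 4. Dazl was at 904, 1159 and 1151 CPM in KO cells (-0.088 ± 0.25, adjusted p = 0.81), Taf7l at 289, 274 and 292 CPM (0.0026 ± 0.19, adjusted p = 0.994), Sohlh2 at 286, 284 and 282 CPM (-0.15 ± 0.13) and Stra8 at 239, 261 and 218 CPM (0.23 ± 0.22). Dazl and Taf7l overlapped between the genotypes, whereas Sohlh2 was lower and Stra8 higher in every KO library. Sycp1, at 166, 221 and 248 CPM in KO cells (0.26 ± 0.11), Stag3, at 178, 168 and 191 CPM (-0.025 ± 0.13), Smc1b (-0.074 ± 0.13), Hormad1 (-0.082 ± 0.10), Asz1 (-0.13 ± 0.14), Dmc1 (-0.014 ± 0.095), Rec8 (0.14 ± 0.10) and Dpep3 (0.034 ± 0.21) were not called. In the collagen fit 9 genes were higher and 9 lower, against 21.5% and 18.4% of all tested genes in that fit. Fibroblast sums of the 2 genotypes did not overlap at day 4 either, so the same limit holds. In the collagen fit Dazl (0.54, adjusted p = 0.0131) and Sohlh2 (0.24, adjusted p = 0.0171) were higher, Ddx4 (-0.27), Stk31 (-0.12), Sycp3 (-0.25), Slc25a31 (-0.088), Brdt (0.097) and Hormad2 (0.077) were not called, and Mov10l1 (-0.32), Syce2 (-1.14) and Piwil2 (0.42) moved by over 1.5 times. With ESC replicate 3 and KO day 2 replicate 2 left out, 5 of 39 tested were higher and 18 lower, where 23.7% and 22.9% of all tested genes were. With the stricter filter 0 of 35 were higher, where 21.8% of all tested genes were. Taf7l (0.64), Stra8 (0.92), Rec8 (0.42), Dpep3 (0.67) and Piwil4 (0.97) were among those higher in the collagen fit.

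Tex11, Mael, Tdrkh, Brdt, Tex101 and Slc25a31 were lower in KO cells at both days, 6 genes that are 50% of the 12 lower at day 2 and 46.2% of the 13 lower at day 4. Over all tested genes 878 were lower at both days, 26.2% of those lower at day 2 and 30.9% of those lower at day 4. The libraries of the 2 days are separate. Syce1, Rad21l, Tdrd1, Tdrd5, Meioc and Taf7l were lower at day 2 only by the test, and Sycp3, Syce2, Tex15, Ddx4, Mov10l1 and Tex19.1 at day 4 only. Neither call was reached by 16 genes, among them Dazl, Stra8, Sohlh2, Sycp1, Stag3 and Smc1b.

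The change in KO effect from day 2 to day 4 was itself tested. It was called for 13 genes, where 36.1% of all tested genes were called. The value was higher at day 4 than at day 2 in 6 (15.8%, against 18.6% of all tested genes) and lower in 7 (18.4%, against 17.6%). Such changes were thus about as frequent as over all tested genes. Tdrd5, with -1.29 ± 0.17 at day 2 and -0.24 ± 0.16 at day 4, had the largest change, 1.05 ± 0.23 (adjusted p = 0.00215). Its KO libraries were at 8.99, 10.5 and 7.44 CPM at day 4 against 10.8, 10.97 and 9.95 CPM in Control cells, so the groups had come to overlap. Tdrkh moved the other way, -0.93 ± 0.15 (adjusted p = 0.000248), as did Tex101, -0.90 ± 0.25 (adjusted p = 0.0107), Stk31, -0.70 ± 0.13, Mov10l1, -0.64 ± 0.18, Tex15, -0.61 ± 0.17, and Tex19.1, -0.56 ± 0.10. Syce1 changed by 0.52 ± 0.14, from a decrease of 0.76 ± 0.10 at day 2 to -0.24 ± 0.093 at day 4, where it was not called (37.9, 39.6 and 39.5 CPM in Control and 34.01, 31.1 and 34.1 CPM in KO cells). The calls of Taf7l (0.80 ± 0.28), Ddx4 (-0.52 ± 0.17), Mael (0.32 ± 0.10), Majin (0.85 ± 0.29) and Piwil2 (0.43 ± 0.14) ended when some single libraries were left out, with adjusted p up to 0.0812, 0.0641, 0.0667, 0.0805 and 0.0603. For Taf7l this was the case for each of the 12 libraries, and with DESeq2 its adjusted p was 0.155. Of the 6 genes with a higher value, 3 were called without Control day 2 replicate 3, KO day 2 replicate 1 or KO day 4 replicate 1, and 2 without Control day 4 replicate 1.

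Within KO cells 26 genes rose from day 2 to day 4 and 5 fell, where 31.2% and 32% of all tested genes did (63.2% in all), with a median log2 fold change of 0.73 against -0.01 for all. The days did not overlap for 28 genes that were higher at day 4 and 5 that were lower, against 35.9% and 37.4% of all tested genes. Taf7l went from 23.8, 27.1 and 26.3 to 289, 274 and 292 CPM (3.47 ± 0.21, adjusted p = 1.5e-09), Sycp1 from 39.2, 38.1 and 36.7 CPM (2.48 ± 0.12) and Tex11 from 13.8, 14.3 and 13.8 CPM (2.19 ± 0.087) to the day 4 values above. The days were far apart for all 3. Rec8 (-1.58 ± 0.10), Stra8 (-0.56 ± 0.22), Dpep3 (-0.75 ± 0.20) and Syce2 (-0.80 ± 0.24) fell, as in Control cells. Tdrkh fell in KO cells, from 22.3, 23.9 and 20.7 to 18.2, 17.2 and 15.3 CPM (-0.40 ± 0.11, adjusted p = 0.00547), and rose in Control cells, from 30.7, 29.8 and 34.7 to 48.1, 44.4 and 44.8 CPM; the difference is the one tested above. Stra8 lost its call with DESeq2 (adjusted p = 0.122) or without KO day 2 replicate 1 or 3 or KO day 4 replicate 1 or 3 (adjusted p 0.0705 to 0.104), and Ddx4 (0.36 ± 0.12) without KO day 2 replicate 1 (0.27, adjusted p = 0.0764) or KO day 4 replicate 2 (0.32, adjusted p = 0.0533). In the collagen fit 17 genes rose and 6 fell, where 26% and 28.7% of all tested genes did, with Dazl (-0.22), Ddx4 (-0.027), Mov10l1 (-0.073) and Syce2 (0.015) on the other side of 0 and Asz1 (0.34), Brdt (0.0082), Meioc (0.0025), Smc1b (0.30), Sycp2 (0.60), Tdrd1 (0.18) and Tdrd9 (0.14) no longer called.

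Other genes of the germ line and meiosis, a list of 44 of which 42 were in the tables and 40 tested, moved in both directions. From day 2 to day 4 in Control cells 18 of the 40 rose (45%, against 33.9% of all tested genes) and 6 fell (15%, against 34.6%), with a median of 0.36. In KO cells 9 were higher (22.5%, against 20.4%) and 14 lower (35%, against 21.4%) at day 2. At day 4, 3 were higher (7.5%, against 19.5%) and 7 lower (17.5%, against 18.1%). The share called lower at day 4 was thus near that of all tested genes. Of the 40, however, 31 had log2 fold changes below 0 at day 4 and 9 above. Their median was -0.22, against -0.01 for all tested genes. Every KO library of day 4 lay below every Control library for 16 genes and above for 4, against 27.2% and 27.6% of all tested genes. Named for their roles after their values were seen, the genes lower at day 4 included Terb2, a partner of Majin at telomeres (-0.82 ± 0.14), Prdm9, which places recombination hotspots (-0.96 ± 0.16), and the Tudor-domain gene Tdrd12 (-0.65 ± 0.16). Terb2 and Tdrd12 were higher in KO cells at day 2 (0.53 ± 0.13 and 0.52 ± 0.15) and had a called difference between the days (-1.35 ± 0.19 and -1.17 ± 0.22).

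Genes that write, remove or oppose DNA methylation, and genes that repress such promoters, were measured alongside. The methylation list held Dnmt1, Uhrf1, Dnmt3a, Dnmt3b and Dnmt3l together with Tet1, Tet2, Tet3, Prdm14 and Dppa3. Its counts thus mix genes of opposite action. Of these 10 genes 6 rose and 3 fell from day 2 to day 4 in Control cells, where 33.9% and 34.6% of all tested genes did. Dnmt3a, a de novo methyltransferase, was at 69.8 ± 9.72 CPM in ESC, 202 ± 4.57 CPM in Control cells at day 2 and 487 ± 8.20 CPM at day 4, and Dnmt3l, its cofactor, at 50.2 ± 19.6, 306 ± 9.23 and 505 ± 78.9 CPM (mean ± SD, n = 3). RNA of both thus rose over the same days as the germline genes. In KO cells 2 of the 10 were higher and 6 lower at day 2, against 20.4% and 21.4% of all tested genes. At day 4, 5 were higher and 2 lower, against 19.5% and 18.1%. Dnmt3l was lower in KO cells at both days (-1.69 ± 0.18 and -0.76 ± 0.17), while Dnmt3a was lower at day 2 (-0.33 ± 0.075) and higher at day 4 (0.31 ± 0.074). Dnmt3b was lower at day 2 (-0.78 ± 0.20), and Dppa3, which protects DNA from methylation in the early embryo and germ line, was lower at day 2 (-0.51 ± 0.14) and at day 4 (-3.16 ± 0.17). Of 18 genes of PRC1.6 and of H3K9 methylation, 4 (22.2%) were higher and 10 (55.6%) lower in Control cells at day 4 than in ESC. Of all tested genes 36.2% and 35.6% were. From day 2 to day 4 in Control cells 6 of the 18 rose (33.3%, against 33.9% of all tested genes) and 5 fell (27.8%, against 34.6%). Their median log2 fold change over that step was -0.02, against -0.01 for all tested genes. In KO cells 3 were higher and 3 lower at day 2 (16.7% each, against 20.4% and 21.4% of all tested genes). At day 4, 9 were higher (50%, against 19.5%) and 2 lower (11.1%, against 18.1%). Among those higher at day 4 was Trim28, a corepressor of zinc finger proteins (0.77 ± 0.054). DNA methylation itself was not measured in these libraries.

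Markers of other cells moved with some of these groups. The 10 spermatid and late spermatocyte genes summed to between 2.48 and 6.14 CPM in the 15 libraries, and 9 of them were too low to test, though none was at 0 in every library; Prm1, Prm2, Tnp1 and Tnp2, which define spermatids, were each at most 0.176 CPM on average in every group. The 7 primordial germ cell genes summed to 579 to 865 CPM in ESC, 298 to 312 CPM in Control cells at day 2 and 234 to 257 CPM at day 4. The sum thus went against the direction of the germline genes. Singly, 1 rose and 3 fell from day 2 to day 4 in Control cells (33.9% and 34.6% of all tested genes). In KO cells the 7 summed to 359 to 372 CPM at day 2 and 244 to 255 CPM at day 4. There 4 were higher and 1 lower at day 2 (20.4% and 21.4% of all), and 3 higher and 2 lower at day 4 (19.5% and 18.1%). The 10 genes of the 2-cell-like state summed to 38.3 to 52.6 CPM in Control and 9.81 to 15.7 CPM in KO cells at day 2, and to 360 to 459 CPM and 61.3 to 69.0 CPM at day 4. This list rose with the germline genes from day 2 to day 4 in Control cells (9 of 9 tested, against 33.9% of all tested genes). It was lower in KO cells at both days (7 and 9 of 9, against 21.4% and 18.1%). Of the 6 tested among the 8 trophoblast genes, 5 were lower in KO cells at day 2 and 4 at day 4, against the same shares. The 8 trophoblast genes summed to 106 to 112 CPM in Control and 58.7 to 62.8 CPM in KO cells at day 2, and to 318 to 416 CPM and 211 to 265 CPM at day 4. Singly, 2 of the 6 tested rose and 1 fell from day 2 to day 4 in Control cells, against 33.9% and 34.6% of all tested genes. The 7 primitive endoderm genes summed to 232 to 250 CPM and 506 to 738 CPM in Control cells at the 2 days, and to 289 to 339 CPM and 664 to 769 CPM in KO cells. Of these 7, 3 were called higher in KO cells at day 2 and 1 at day 4, against 20.4% and 19.5% of all tested genes. The 6 pluripotency genes summed to 2246 to 2284 CPM in Control and 2722 to 2843 CPM in KO cells at day 2, and to 1625 to 1669 CPM and 2249.8 to 2410.4 CPM at day 4. Of these 6, 3 were called higher and 1 lower in KO cells at day 2 (20.4% and 21.4% of all). All 6 were higher at day 4 (19.5% of all). The part of these markers in the germline values was not tested.

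Position was compared as well. Over all tested genes of chromosome 6, which carries Asz1, Stra8 and Stk31, the median log2 fold change of Control day 4 against day 2 was 0.39, and on the X chromosome, which carries Tex11 and Taf7l, it was 0.21. Against ESC these medians were 0.44 and 0.48 at day 4. The increases of Asz1 (0.92 ± 0.14), Stk31 (1.41 ± 0.093), Tex11 (2.24 ± 0.086) and Taf7l (2.67 ± 0.20) from day 2 to day 4 were larger than the medians of their chromosomes. In the GRCm38 annotation (GENCODE M21) Asz1 lies at chromosome 6, 18050964 to 18109061, Stk31 at 49395604 to 49469501 of the same chromosome, Tex11 at X, 100838648 to 101059667, and Taf7l at X, 134460118 to 134476490. Dazl lies at chromosome 17, 50279395 to 50293636, Tex101 at chromosome 7, 24668007 to 24676675, Tdrkh at chromosome 3, 94413273 to 94434668, and Majin at chromosome 19, 6184388 to 6224225.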

How the data were processed

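The authors deposited raw counts per gene symbol for each of the 15 libraries of polyadenylated RNA, 3 in each of 5 groups. STAR, featureCounts, StringTie and DESeq2 and the builds mm10 and GRCm38 are named per the submitters' processing notes; for their versions, the annotation and the strand setting, nothing is stated in the sources used here. The deposited counts were tested in edgeR 4.0.16 (R 4.3.3, limma 3.58.1). Genes were kept by filterByExpr (minimum count 10, minimum total 15), libraries were scaled by TMM, and 1 quasi-likelihood model over the 5 groups gave every comparison, with Benjamini-Hochberg adjustment over the 15696 genes tested and a threshold of 0.05. Of the 24982 symbols, 3371 had no counts at all. The script was tested on simulated data. Between libraries of a group the counts differed by 3.2 to 31.8 times sampling noise (chi-square per degree of freedom), so none was a repeat of another.

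The members and all gene lists were chosen with earlier results of these data known. Library values are given for the 3 most abundant genes of each role, for genes that moved against the majority of called genes, and for the 3 largest called changes in each comparison, plus genes chosen after their values were seen, among them Tdrkh, Mael, Asz1, Mov10l1 and Piwil2 at some times and the named genes of the DNA methylation and repressor lists. The promoters of Dazl, Sohlh2, Taf7l and Stra8 follow a rule on level, and those of Tex101, Tdrkh, Hormad1 and Sycp3 were chosen after values were seen. Gene positions and exon lengths came from GENCODE M21 (GRCm38), and promoter windows from RefSeq (GRCm38.p6). Alternatives were DESeq2 1.42.0, RLE and upper quartile scaling, no filter, a stricter filter (CPM of at least 10 in 3 libraries), a replicate block, the collagen covariate, only the groups compared, each library left out, and, chosen after seeing the data, a fit without ESC replicate 3 and KO day 2 replicate 2.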

Additional observations from a re-analysis of the deposited data

Results flagged for a closer look

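For 13 of the 38 tested genes the Atg7 KO effect at day 4 differed from that at day 2 by the interaction term of the edgeR model (adjusted p under 0.05), where 36.1% of all tested genes did. The number called was thus about that of any genes tested. The difference, day 4 minus day 2 on the log2 scale, was above 0 for 6 genes: 1.05 for Tdrd5, 0.854 for Majin, 0.803 for Taf7l, 0.519 for Syce1, 0.427 for Piwil2 and 0.315 for Mael. It was below 0 for 7 genes: -0.926 for Tdrkh, -0.898 for Tex101, -0.699 for Stk31, -0.636 for Mov10l1, -0.608 for Tex15, -0.556 for Tex19.1 and -0.518 for Ddx4. Stk31 was the gene called in opposite directions at the 2 days, higher in KO cells at day 2 and lower at day 4.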

How the results depend on the processing

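Of 4194 values of single genes under the alternatives, 3930 kept call and direction, 157 lost a call, 83 gained one and 24 reversed, all 24 with the collagen covariate; the cause was not tested. The reversed values were, for Control day 4 against day 2, Brdt -0.090, Dazl -0.12, Hormad2 0.46, Meioc -0.074, Piwil4 -1.37, Sohlh2 -0.31, Syce2 0.19 and Tdrd1 -0.16; for day 2 against ESC, Syce2 0.65; for day 4 against ESC, Piwil4 -0.21, Rec8 -0.31 and Syce2 0.84; for KO at day 2, Dpep3 0.55, Piwil4 0.72 and Tdrd1 0.0013; for KO at day 4, Brdt 0.097, Dazl 0.54 and Sohlh2 0.24; and for KO day 4 against KO day 2, Dazl -0.22, Ddx4 -0.027, Mov10l1 -0.073, Piwil4 -1.12, Sohlh2 -0.49 and Syce2 0.015. With that covariate the higher genes numbered 17 in place of 27 (Control day 4 against day 2), 8 in place of 1 (KO at day 2), 9 in place of 3 (KO at day 4) and 17 in place of 26 (KO day 4 against KO day 2), and the lower ones 0 in place of 2 (day 4 against ESC). With only the groups compared, KO at day 2 gave 23 called genes, 4 higher and 19 lower (28.8% and 28.2% of all genes tested). Day 4 against ESC then gave 1 lower (32.2% of all). The stricter filter, which tests fewer genes, left 0 higher in KO cells at day 4 (21.8% of all). Without ESC replicate 3 and KO day 2 replicate 2, the higher genes were 2 in KO cells at day 2 and 5 at day 4 (23.1% and 23.7% of all).

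With 1 library left out, the called genes numbered 32 to 36 (Control day 2 against ESC; 28 to 32 higher, 4 lower), 30 to 32 (Control day 4 against day 2; 26 to 28 higher, 3 to 5 lower), 36 to 37 (day 4 against ESC; 34 to 35 higher, 1 to 2 lower), 9 to 11 (KO at day 2; 1 higher, 8 to 10 lower), 11 to 14 (KO at day 4; 1 higher, 10 to 13 lower), 29 to 31 (KO day 4 against KO day 2; 25 to 27 higher, 4 to 5 lower) and 9 to 12 (difference of the KO effects; 2 to 5 higher, 6 to 7 lower). Of all tested genes 33% to 37.8% were then higher and 32.5% to 35.8% lower for Control day 2 against ESC. Control day 4 against day 2 gave 30.7% to 31.5% and 31.6% to 32.2%. Day 4 against ESC gave 34% to 38.1% and 33.5% to 36.2%. KO gave 16% to 17.7% and 15.9% to 17.7% at day 2, and 16.1% to 16.8% and 13.9% to 14.9% at day 4. KO day 4 against KO day 2 gave 28.1% to 28.6% and 28.9% to 29.5%. The difference gave 15.6% to 16.8% and 14.5% to 15.5%.

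Libraries with the same replicate number had correlations of their deviations from -0.0954 to 0.081 over 30 pairs, and 7 of 15 libraries correlated best with their own number. These correlations were small, and whether libraries of 1 number share a culture or batch was not tested. With a replicate block, 11 genes were called for KO at day 2 (1 higher, 10 lower), 15 for KO at day 4 (3 higher, 12 lower), 35 for Control day 2 against ESC, 31 for Control day 4 against day 2, 36 for day 4 against ESC, 31 for KO day 4 against KO day 2 and 13 for the difference of the KO effects. The block ended the calls of Rad21l (adjusted p = 0.0578) and Tdrd1 (0.0628) for KO at day 2 and of Brdt (0.0525) for KO at day 4.

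Genes of few reads, such as Rad21l, Spo11 and Tdrd6, are limited by depth.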
